A study of Mus musculus with 4 samples.

Results

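The TGFβ response of the TRF1ΔN line was read from 2 of the 4 libraries of the study: 1 from NMuMG cells that stably overexpressed TRF1ΔN, a mutated human TRF1, before treatment (0 h), and 1 from the same cells after 24 h of TGFβ at 5 ng/ml. NMuMG is a mouse line of mammary epithelial cells, and TRF1 is a protein that binds telomeric DNA. The other pair of libraries came from NMuMG cells overexpressing Vp16-TRF1ΔN, the same protein fused to a viral activation domain, at 0 h and after 24 h of TGFβ, so every library of the series carried a form of the mutated TRF1 and no untransfected cells were among them. The TRF1ΔN line is the study's control for the fusion, and the labels do not say whether it is a pool or a single clone. All cells were grown with serum and insulin. No 24 h library without TGFβ is labelled, so the effects of TGFβ and of 24 h more in culture cannot be told apart. The members were all genes whose level averaged 1 CPM or more over the 2 libraries, which was 11771 of the 21971 genes in the table. Each side had 1 library, so no replicate spread exists and no test was made. A gene was counted as higher or lower when the 24 h level differed at least 2-fold from the 0 h level and the exact 95% counting interval of the ratio excluded 1. CPM are counts divided by the scaled size of the library and given per 1000000. Log2 ratios are 24 h over 0 h, and the intervals after them cover counting error only.

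TGFβ is a secreted dimer that brings together type II and type I receptor kinases, which phosphorylate SMAD2 and SMAD3. These join SMAD4, enter the nucleus and act on target genes with partner factors, and some of the targets, such as Smad7 and Skil, feed back to restrain the pathway. In mammary epithelial cells TGFβ halts proliferation and drives epithelial-to-mesenchymal transition (EMT), in which cells loosen their junctions, reorganise actin and deposit matrix. NMuMG cells are a widely used model of this change.

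The 0 h library held 45983910 gene counts and the 24 h library 43354144, with at least 1 count for 20047 and 19960 genes, and 3 counts equalled 0.0630 and 0.0713 CPM. The row for the TRF1ΔN construct, which was left out of all gene counts, stood at 39.1 CPM at 0 h and 185 CPM at 24 h. The rows for parts of the vector, left out as well, went from 8.86 to 26.9 CPM and from 311.6 to 387.5 CPM. The level of the transgene RNA in the TRF1ΔN row thus moved with the treatment, and its part in the responses below was not tested. Of 12 luminal mammary markers 8 reached 1 CPM, with the keratins Krt8 and Krt18 abundant. Among these were the luminal regulators Foxa1 and Gata3, whereas Elf5 (0 and 5 counts) and Esr1 (5 and 3 counts) were close to absent. Of 12 basal and myoepithelial markers 5 reached 1 CPM, and these summed to 198 and 136 CPM at 0 h and 24 h. Of these, Col17a1 (log2 ratio 4.44) and Procr (1.58) were higher at 24 h, Mylk (-2.29) was lower, and Krt14 (0.12) and Itgb4 (-0.30) were not counted. Below 1 CPM the basal markers differed. Krt5 (21 and 1 counts) and Trp63 (6 and 2 counts) were close to absent, whereas Krt17 had 0 and 56 counts and Acta2 1 and 75. Of 6 immune, 6 endothelial and 6 adipocyte markers, 2 of each list reached 1 CPM. Those pairs summed to 3.17 and 5.32 CPM, 113 and 37.5 CPM, and 29.3 and 19.4 CPM at 0 h and 24 h. The defining genes Ptprc of leukocytes (7 and 1 counts), Pecam1 of endothelium (2 and 3 counts) and Adipoq of adipocytes (1 and 1 counts) were near 0. Other members of the lists moved. In the immune list Csf1r was higher at 24 h (log2 ratio 5.22) and Cd68 level (-0.11). In the endothelial list Cdh5 had 4 and 50 counts, whereas Flt1 (-1.57) and Egfl7 (-2.38) were lower. Of 9 fibroblast markers 4 reached 1 CPM, and these summed to 443 and 176 CPM. Pdgfrb (0 and 217 counts), Col1a1 (35 and 778 counts) and Pdgfra (26 and 114 counts) were higher at 24 h and S100a4 lower, while Col3a1 (0 and 2 counts) and Dcn (2 and 0 counts) were near 0. The part of fibroblast-type cells in the results was not tested.

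After 24 h of TGFβ 1017 genes were higher (8.64% of the genes measured) and 1269 were lower (10.8%), together 19.4%. The median log2 ratio over all measured genes was -0.02, with quartiles at -0.41 and 0.36, and 5138 genes had a log2 ratio within 0.32 of 0. The tails were deep: 364 genes were at least 4-fold higher and 425 at least 4-fold lower, and 68 and 65 were past 32-fold. In terms of RNA, the genes counted as lower held 11.9% of all CPM at 0 h and 3.60% at 24 h. Those counted as higher went from 4.12% to 13.1%, so gene sets of about equal weight changed places. The share counted varied with abundance: among genes with a mean between 1 and 5 CPM 17.8% were higher and 18.9% lower, against 5.83% and 8.06% between 20 and 100 CPM, and at 500 CPM or more the share was 14.7% higher and 10.7% lower. The Vp16-TRF1ΔN pair shares no library with this pair. In it, 1015 of the 1017 higher genes were also above 1 and 1263 of the 1269 lower genes below 1. At least 2-fold there were 751 and 948 of them. The share of all measured genes on each side of 1 in that pair is not given here, so these counts have no base beside them. The median log2 ratios were smaller there (1.37 against 1.66, and -1.42 against -1.62). Genes picked for a large ratio in one pair tend to show a smaller one in another, so those medians do not compare the lines. Counts over gene lists below cover the measured members only, and a gene that was silent at one time entered through the time at which it was expressed.

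**Figure D1:**
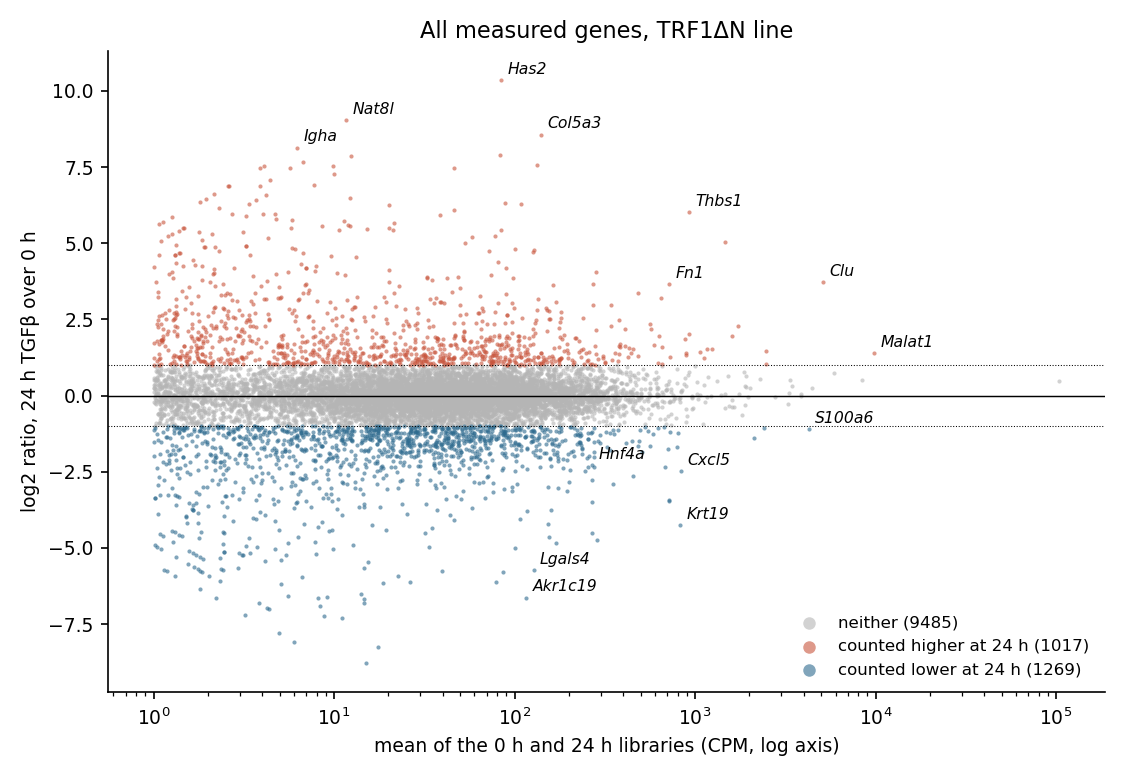
Each point is 1 of the 11771 measured genes of the TRF1ΔN line, placed by its mean over the 0 h and 24 h libraries (CPM, log axis) and its log2 ratio. Red points are the 1017 genes counted as higher and blue points the 1269 counted as lower at 24 h, dotted lines mark 2-fold, and large ratios appear in both directions from the lowest levels up to that of Krt19.

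The 10 largest ratios in each direction were read where the pair averaged 5 CPM or more and each library had 10 or more counts, and they came from genes of many functions. Col5a3, a type V collagen chain, stood at 0.693 CPM at 0 h and 279 CPM at 24 h (log2 ratio 8.56, counting interval 8.16 to 9.19). Thbs1, which encodes the matrix protein thrombospondin 1 (mm10, chr2:118111876-118127133), went from 27.98 to 1828 CPM (log2 ratio 6.03, counting interval 5.95 to 6.11). Col5a3 was almost silent and Thbs1 modestly expressed before TGFβ, and both were abundant after it. Among the other genes of this group were Il11 (7.90), Tnc (7.55), Ctsw (7.45), Wnt9a (6.47), Col7a1 (6.31), Lgr6 (6.28) and Lce1g (6.07) on the log2 scale. They encode a cytokine of the interleukin 6 family, tenascin C, a lymphocyte protease, a Wnt ligand, the collagen of anchoring fibrils, an R-spondin receptor and a cornified envelope protein. Has2, a hyaluronan synthase, had the single highest ratio (10.36, 4 to 7101 counts); it was named after its values were seen.

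In the other direction Akr1c19, an aldo-keto reductase, stood at 230.5 CPM at 0 h and 2.28 CPM at 24 h (log2 ratio -6.63, counting interval -6.96 to -6.37). Itgb7, the integrin β7 chain best known from gut-homing lymphocytes, stood at 156 CPM at 0 h and 2.19 CPM at 24 h (log2 ratio -6.13, counting interval -6.47 to -5.86). Lgals4, a galectin of the gut epithelium, stood at 251 CPM at 0 h and 4.66 CPM at 24 h (log2 ratio -5.74, counting interval -5.96 to -5.55). All 3 were plainly expressed at 0 h and at a few CPM at 24 h. The remaining 7 were Mettl7b (-6.69), Mep1a (-6.52), a brush border protease, Ckmt1 (-6.15), the mitochondrial creatine kinase, Krt6a (-6.10), Adap1 (-5.93), Aldh3a1 (-5.78), an aldehyde dehydrogenase, and Cybb (-5.75), the catalytic chain of the phagocyte NADPH oxidase.

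A few genes had 3 or fewer counts in one library and at least 5 CPM in the other. Nat8l, which makes N-acetylaspartate, had 0 counts at 0 h and 982 at 24 h, at least 370.5-fold higher against the floor of 3 counts. Chrna1, a muscle acetylcholine receptor subunit, went from 3 to 1044 counts, 394-fold higher (134 to 1913), and Kif26b, a kinesin family member, from 3 to 831 counts, 314-fold higher (107 to 1523). St8sia2, a polysialyltransferase, went from 1 to 482 counts, Serpinb9e from 1 to 373 counts and the folate enzyme gene Aldh1l1 from 2 to 350 counts. Switched the opposite way were Fbp2, the muscle form of fructose bisphosphatase, from 471 to 0 counts (at least 139-fold lower), and Smim6, from 573 to 0 counts (at least 169-fold lower). Dio3, which inactivates thyroid hormone, went from 1434 to 1 counts, Sptssb, of sphingolipid synthesis, from 1669 to 3 counts, Alb, albumin, from 833 to 3 counts, the connexin gene Gjb1 from 527 to 3 counts and Ranbp3l from 402 to 1 counts. These genes were on or off rather than abundant: those seen at 24 h stood between 8.31 and 24.8 CPM.

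The genes that moved the most RNA were others. Clu, the secreted chaperone clusterin, gained most among protein-coding genes, from 719.5 to 9478 CPM (log2 ratio 3.72, counting interval 3.70 to 3.74). Malat1, a long nuclear noncoding RNA, gained slightly more, from 5402 to 14172 CPM (log2 ratio 1.39, counting interval 1.38 to 1.40). Among the 10 largest gains were 7 cytoskeletal or matrix genes: Actb (4424 to 7325 CPM), Myh9 (1307 to 3613 CPM), Flna (1630.2 to 3339.8 CPM) and Msn (649 to 2542 CPM), which build or anchor actin, and Fbln2 (596 to 2877 CPM), Thbs1 and Fn1 (106 to 1334 CPM), which build matrix. The largest losses were S100a6, a calcium-binding protein, from 5811 to 2729.5 CPM, Spp1, osteopontin, from 3069 to 1163 CPM, Ctnnb1, β-catenin, from 3284 to 1556 CPM, and Krt19, from 1565 to 82.7 CPM. Lgals2 (1309 to 118 CPM), Selenop (1309.5 to 121 CPM), the chemokine Cxcl5 (1418 to 256 CPM), Sprr1a (1137 to 225 CPM) and the glycolytic genes Ldha (1215 to 375 CPM) and Pkm (2215 to 1424 CPM) completed the 10. Among other abundant genes with large ratios, Angptl2 (4.80), Timp3 (4.77), Plxna4 (4.71) and Sdc3 (4.04) were higher, and Vnn1 (-4.50) and Vsig1 (-4.85) were lower.

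The pathway's own genes moved at the level of ligands, latency proteins and feedback, and less at the level of receptors and Smads. Of 17 measured genes for ligands, latency proteins and receptors 7 were higher and 0 lower, against 8.64% and 10.8% of all genes, with a median log2 ratio of 0.84 against -0.02. Ltbp2 (2.14 to 38.0 CPM, log2 ratio 4.12), which belongs to the latent TGFβ binding proteins of the matrix, was highest. Inhba, which forms activin A, went from 12.7 to 185 CPM (3.86), and Lrrc32, which tethers latent TGFβ to the cell surface, from 7.16 to 66.5 CPM (3.21). Acvr1 was the receptor gene with the largest ratio (2.20), and of the ligands Tgfb3 stood at 1.79, Tgfb2 at 1.06 and Tgfb1 at 0.84. The main receptor genes Tgfbr1 (0.08) and Tgfbr2 (-0.02) kept their levels. At the low end were Acvr1b (-0.39), Acvr2a (-0.62) and Inhbb (-0.96), none of them past 2-fold. Tgfb2 was just past 2-fold and missed it when libraries were scaled by total counts (0.97).

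Among the 17 measured Smads and feedback regulators 6 were higher and 0 lower (median 0.64), and every one of the 6 encodes a restraint on the pathway or a receptor decoy. Pmepa1, which removes SMADs from the receptor, went from 118 to 570.4 CPM (log2 ratio 2.27, counting interval 2.23 to 2.32), and Smad7, the inhibitory Smad, from 43.8 to 135 CPM (log2 ratio 1.62, counting interval 1.55 to 1.70). The corepressor genes Skil (1.63), Ski (1.40) and Tgif1 (1.08, or 0.98 with scaling by total counts) and the decoy receptor gene Bambi (1.35, 28 to 66 counts) were the others. The signalling Smads were close to level, with Smad2 at -0.06, Smad3 at 0.34 and Smad4 at 0.06. Smad6 (-0.49) and Tgif2 (-0.56) were lowest. The SMAD-binding letters CAGACA were in 36.4% of the list's 11 promoter windows, in 20.6% of those of genes counted as higher, in 16.4% of those counted as lower and in 15.4% of all; the windows are described with the YAP and TAZ genes. Genes of the neighbouring BMP branch split: Fstl3 (4.60) and Grem1 (2.35), which bind and block ligands, Bmp1 (2.43), in fact a procollagen protease, and the receptor gene Bmpr2 (1.22) were higher, and Bmp4 (-1.72), Id1 (-2.45) and Id2 (-3.15) lower. Id2, an inhibitor of basic helix-loop-helix factors, had the lowest ratio of the branch, at 352 CPM at 0 h and 39.7 CPM at 24 h. The remaining 4 of its 11 measured genes, Fst (0.44), Bmpr1a (0.27), Id3 (-0.66) and Bmp2 (-0.66), were not counted.

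Extracellular matrix genes were higher as a group. Of 16 measured collagen genes 11 were higher and none lower (median 1.501). Beside Col5a3 and Col7a1, Col1a1, a chain of the main fibrillar collagen, went from 0.735 to 18.5 CPM (log2 ratio 4.57, counting interval 4.16 to 5.19), and Col5a1 from 8.90 to 140 CPM (log2 ratio 3.97, counting interval 3.83 to 4.12). The type IV chains of the basement membrane were not counted, with Col4a1 at 0.64 and Col4a2 at 0.54, and type VI was uneven, with Col6a3 at 2.33, Col6a1 at -0.18 and Col6a2 at -0.81. Of 19 matrix glycoprotein and proteoglycan genes 10 were higher and 2 lower (median 1.66). Fbn1 (4.06), a microfibril protein, Fn1 (3.65) and the matricellular gene Ccn4 (3.38) followed Tnc and Thbs1. At the low end stood Hspg2 (0.45), Sdc4 (0.07), Agrn (-0.02), Spp1 (-1.40) and Nid2 (-3.82), so the basement membrane components of this list, perlecan, agrin and nidogen, did not follow the interstitial ones upward.

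The enzymes that finish and remodel the matrix were uneven. For collagen maturation, Plod2, which hydroxylates lysines of the collagen telopeptides, went from 37.7 to 266 CPM (2.82), P4ha3 stood at 1.76 and the crosslinking enzyme gene Loxl2 at 1.75; P3h2 (-1.37) and Pcolce (-2.82) were lower. In all, 3 of 13 genes were higher and 2 lower. Relatives of Loxl2 under the minimum of 1 CPM were Lox (1 and 82 counts), Loxl1 (0 and 12 counts) and Loxl3 (31 and 56 counts). Of 17 matrix proteases and inhibitors 8 were higher and 1 lower. Mmp9, a gelatinase, went from 1 to 194 counts, 219.6-fold higher (38.9 to 8716), and Adam12 from 3.19 to 104 CPM (5.00). Of the inhibitors, Timp3 went from 9.07 to 248 CPM and Timp1 from 62.2 to 292 CPM (2.23), whereas Timp2 was level at 0.18. The collagenase gene Mmp13 was the lower one, at 16.6 CPM at 0 h and 4.06 CPM at 24 h. The membrane protease gene Mmp14 stood at 1.87 and Plau, urokinase, at 0.68. Of 16 ADAM and ADAMTS proteases 8 were higher and 3 lower, from Adamts16 (6.36), Adam12 and Adamts12 (3.22) to Adamts15 (-1.38), Adam23 (-3.002) and Adamts9 (-3.18). Of 15 measured serpins 8 were higher and 2 lower (median 1.21), with Serpinf1 (5.91) and Serpini1 (1.94) among the higher ones.

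Integrins, the receptors for the matrix, did not move together. Of 13 integrin genes 4 were higher and 4 lower. Itga5, which pairs with β1 as the fibronectin receptor, went from 27.0 to 242 CPM (log2 ratio 3.17, counting interval 3.09 to 3.25), and Itgb1 from 604 to 1737 CPM (1.52). Itgb5 (1.255) and Itgb3 (1.14), partners of the αv chain, were the other higher ones. Itga6, the laminin receptor chain of hemidesmosomes, went from 247 to 93.0 CPM (-1.41), and Itga7 (-1.69), Itga1 (-2.35) and Itgb7 were lower too. Itgb6 (0.21), Itgb4 (-0.30) and Itga3 (-0.56) were among those within 2-fold. Of the 6 measured laminin chains Lamb1 alone was counted, higher at 1.995; Lamb3 (0.54), Lama5 (-0.40), Lamc1 (-0.55) and Lamb2 (-0.91) were among those within 2-fold.

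**Figure D2:**
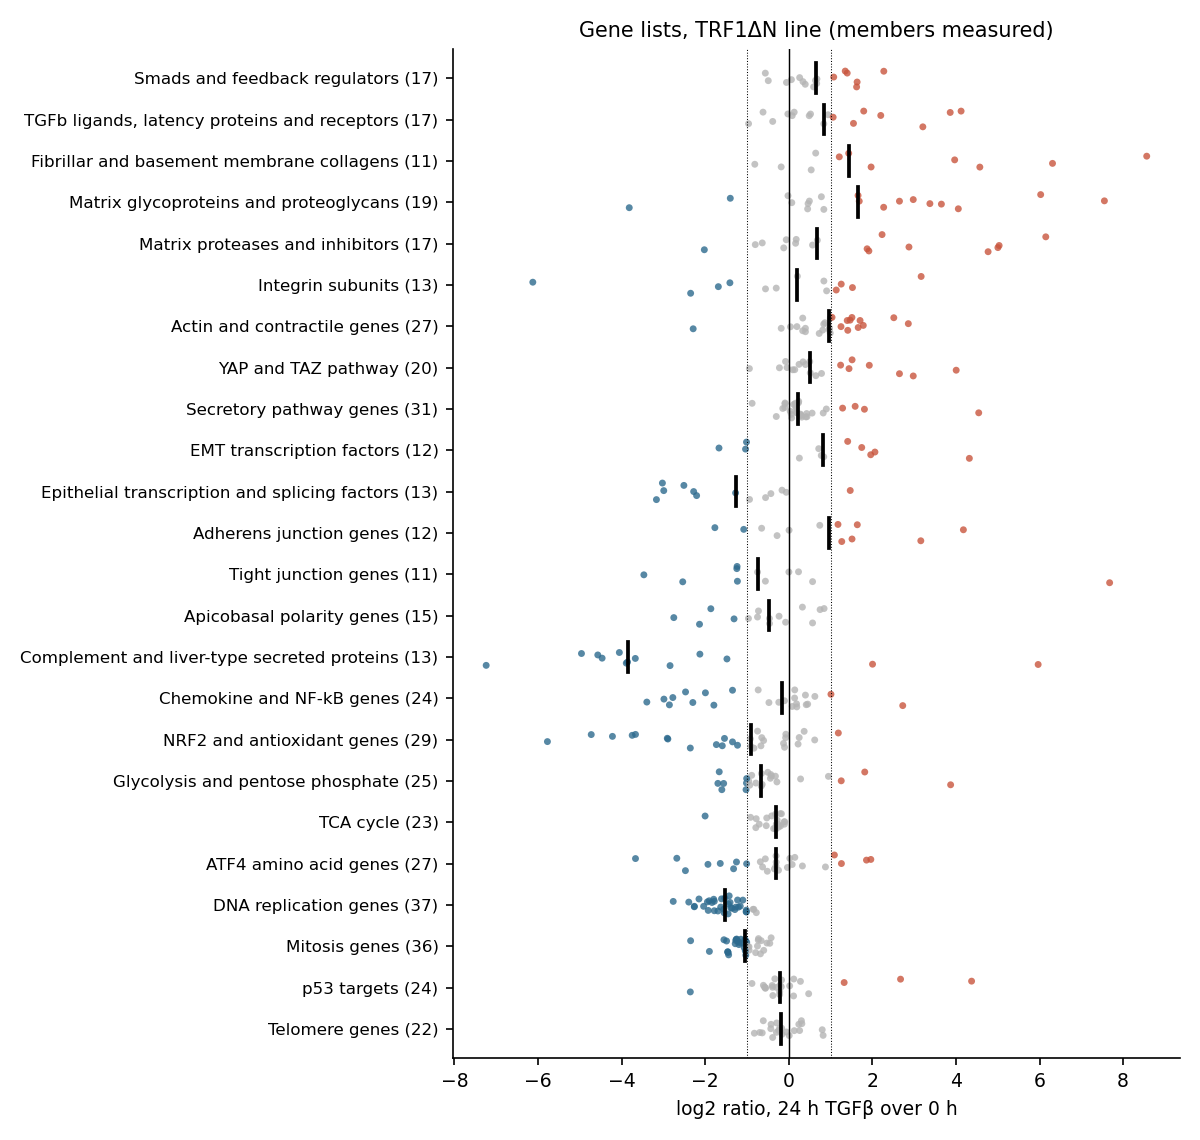
Each point is the log2 ratio of 1 measured member of a gene list in the TRF1ΔN line, and the black bar is the list's median; the number measured is in brackets, red and blue mark genes counted as higher and lower, grey those not counted. Matrix, actin and TGFβ feedback lists lie to the right, replication, mitosis and liver-type secreted proteins to the left, and telomere genes lie within 2-fold of no change.

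Genes of the actin cytoskeleton were mostly above 0. Of 27 measured actin and contractile genes 11 were higher and 1 lower, 25 were above 0, and their summed level went from 11998 to 23641 CPM. Zyx, a focal adhesion protein that senses tension, went from 36.02 to 262 CPM (log2 ratio 2.86, counting interval 2.79 to 2.94). Pdlim7 (2.51), Cnn2 (1.78), Cnn3 (1.71) and the crosslinker gene Actn1 (1.66) came next. Those at the low end were Pxn (0.33), Tpm3 (0.19), Actn4 (0.04), Vasp (-0.18) and Mylk (-2.29). Mylk, the myosin light chain kinase and the only lower member, stood at 59.7 CPM at 0 h and 12.2 CPM at 24 h. The cytoplasmic actin gene Actg1 had 137 to 325 counts, few for a gene of this kind; it has near-identical copies in the genome, so its value is uncertain. Tubulins divided by isotype. Tubb3, the neuronal β-tubulin, went from 4 to 338 counts, Tuba1a from 39.1 to 270.2 CPM (2.79), Tubb2b stood at 2.15 and Tubb2a at 1.39, whereas Tubb5 (0.25) was level, Tubb4b stood at -0.78 and a Tubb4b pseudogene at -1.02. Of 24 myosin genes 3 were higher, Myo7a (1.92), Myo10 (1.54), which sits in filopodia, and Myh9 (1.47), and 5 were lower. Myo1a (-3.27) and Myo7b (-1.99), known from the brush border of gut cells, were among the lower ones, with Myo15b (-2.63).

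YAP and TAZ are coactivators that bind TEAD factors when cells spread and actin is under tension, and SRF acts on actin genes through MRTF coactivators. Of 20 genes of the YAP and TAZ pathway 7 were higher and 0 lower (median 0.51). The higher ones were Vgll3 (4.01), a TEAD cofactor, the targets Ccn2 (2.98), Ccn1 (2.65), Ankrd1 (1.51) and Amotl2 (1.24), Amotl1 (1.93) and the factor Tead2 (1.44). Yap1 (0.25), Nf2 (0.09), Lats1 (0.14), Stk4 (-0.04), Sav1 (-0.08) and Axl (-0.22) were close to level, and Tead4 stood at -0.94. Of 11 SRF and MRTF genes 3 were higher, Egr2 (2.27), Junb (1.63) and Mrtfa (1.18), 2 were lower, Fos (-1.29) and Fhl1 (-3.04), and Vcl (0.87), Srf (0.64), Mrtfb (0.43), Ier2 (0.37), Fhl2 (0.26) and Egr1 (-0.48) were not counted. Within AP-1, Jun (15.9 to 116 CPM, 2.87), Fosl2 (52.3 to 308 CPM, 2.55), Atf3 (1.68) and Junb were higher and Fos and Fosl1 (-1.35) lower. Mafk (0.72), Jund (0.54) and Maff (0.32) were not counted.

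The promoters of the YAP and TAZ list were read for the TEAD-binding letters GGAATG. Windows from 250 bases before to 50 bases after the start were taken from RefSeq for GRCm38.p6, 1 per gene, for 9039 of the measured genes, and both strands were searched. The letters were in 68.8% of 16 windows of the list and in 11.8% of all 9039. Among actin and contractile genes the share was 41.7% of 24 windows. Over all genes counted as higher it was 12.3%, near the share of all genes. Part of the list consists of known TEAD targets, so its share describes the list and not the response. The windows of Ankrd1 and Ccn1 show such matches in capitals, with CATTCC being the same letters on the opposite strand:
Ankrd1, chr19:36119795-36120094, minus strand: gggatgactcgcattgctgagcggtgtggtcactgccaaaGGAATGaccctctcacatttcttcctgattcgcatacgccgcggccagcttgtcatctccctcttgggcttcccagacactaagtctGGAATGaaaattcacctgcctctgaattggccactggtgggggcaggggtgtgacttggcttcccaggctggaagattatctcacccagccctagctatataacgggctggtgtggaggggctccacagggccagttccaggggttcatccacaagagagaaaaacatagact
Ccn1, chr3:145649936-145650235, minus strand: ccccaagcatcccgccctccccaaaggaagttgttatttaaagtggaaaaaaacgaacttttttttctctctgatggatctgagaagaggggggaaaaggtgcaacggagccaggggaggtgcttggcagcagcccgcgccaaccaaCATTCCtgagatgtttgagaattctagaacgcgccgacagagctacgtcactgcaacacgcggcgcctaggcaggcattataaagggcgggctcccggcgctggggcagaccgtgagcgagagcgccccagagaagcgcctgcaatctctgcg

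Cell adhesion genes did not move as 1 group. Of 12 measured adherens junction genes 6 were higher and 2 lower (median 0.96). Nectin4 (12 to 224 counts) and Nectin1, from 6.78 to 60.9 CPM (3.16), are immunoglobulin-like adhesion molecules and had the largest ratios. The cadherins Cdh6 (1.64) and Cdh2 (1.27), Nectin3 (1.51) and Ctnnd1, p120 catenin (1.18), were higher as well. E-cadherin, Cdh1 (366 to 107 CPM, -1.77), and β-catenin, Ctnnb1 (-1.08), were the lower ones, and Jup (0.74), Ctnna1 (0.01), Nectin2 (-0.28) and Afdn (-0.65) were not counted.

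In the tight junction, which seals the space between epithelial cells, 5 of 11 measured genes were lower and 1 higher (median -0.75). Tjp3 went from 12.8 to 1.12 CPM (log2 ratio -3.47, counting interval -3.98 to -3.09), Marveld2, tricellulin, from 7.39 to 1.24 CPM (-2.54), and Ocln, occludin, from 72.1 to 30.6 CPM (-1.24). The adaptor genes Cgn (-1.24) and Cgnl1 (-1.23) were lower by about the same factor as Ocln. Cldn2 (-0.75), a pore-forming claudin, Tjp1 (-0.56), Cldn12 (0.23) and F11r (0.57) were not counted. Cldn4 went against its group, from 1 to 563 counts, 637-fold higher (114 to 25212). The letters CACCTG, the E-box that Snail and Zeb repressors bind, were in 5 of the list's 10 windows and in 16.5% of all windows. In genes counted as lower the share was 20.4%, and in genes counted as higher 16.4%. Matches were present in lower genes (Tjp3, Ocln) and in the higher Cldn4, shown here with the E-box in capitals as CACCTG or, on the opposite strand, CAGGTG:
Ocln, chr13:100552669-100552968, minus strand: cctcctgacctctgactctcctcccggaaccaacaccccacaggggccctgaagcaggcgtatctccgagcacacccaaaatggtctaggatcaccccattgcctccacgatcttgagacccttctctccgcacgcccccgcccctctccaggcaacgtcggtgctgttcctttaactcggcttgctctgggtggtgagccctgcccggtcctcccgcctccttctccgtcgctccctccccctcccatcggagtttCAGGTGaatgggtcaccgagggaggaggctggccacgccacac
Tjp3, chr10:81291532-81291831, minus strand: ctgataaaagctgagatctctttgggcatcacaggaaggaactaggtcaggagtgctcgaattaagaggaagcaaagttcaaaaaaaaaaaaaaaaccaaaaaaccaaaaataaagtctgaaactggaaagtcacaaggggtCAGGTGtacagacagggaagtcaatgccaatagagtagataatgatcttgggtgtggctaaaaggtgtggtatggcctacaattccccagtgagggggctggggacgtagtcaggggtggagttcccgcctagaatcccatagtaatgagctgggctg
Cldn4, chr5:134946885-134947184, minus strand: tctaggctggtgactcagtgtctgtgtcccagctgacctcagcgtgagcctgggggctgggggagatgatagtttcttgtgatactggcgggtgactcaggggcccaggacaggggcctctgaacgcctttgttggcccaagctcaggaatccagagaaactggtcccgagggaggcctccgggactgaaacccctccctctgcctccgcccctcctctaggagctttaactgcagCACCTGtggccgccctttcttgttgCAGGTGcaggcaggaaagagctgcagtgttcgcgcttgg

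Desmosomes and hemidesmosomes were balanced, with 4 of 14 genes higher, 2 lower and a median of 0.07, which was -0.02 with scaling by total counts. Col17a1 (4.44), Pkp1 (24.3 to 304 CPM, 3.64), Evpl (1.59), Dst (1.28) and Plec (0.66) were at the top, Ppl (-1.91), Itga6, Perp (-0.88), Pkp3 (-0.75) and Pkp4 (-0.52) at the bottom, and desmoplakin, Dsp, was level at 0.20. Of 15 apicobasal polarity genes 4 were lower and none higher. These were the Crumbs gene Crb3 (11.8 to 1.71 CPM, -2.75), Llgl2 (-2.14), Ezr (800.2 to 219.6 CPM, -1.87), which ties apical membrane to actin, and its partner Slc9a3r1 (-1.31). Msn, the relative of Ezr that is common in mesenchymal cells, went the other way (1.97). Among keratins the abundant pair of simple epithelia stayed within 2-fold, with Krt8 at 0.32 and Krt18 at 0.50, while Krt19 stood at -4.24. Krt6a, Krt76 (-5.20) and Krt79 (-2.33) were lower and Krt16 (2.71) higher. Vimentin, Vim, the usual mesenchymal filament, was already abundant at 0 h and stayed level (3209.6 to 3421 CPM).

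Most regulators of the mesenchymal state were above 0 and most of the epithelial state below it. Of 12 EMT transcription factor genes 5 were higher: Snai1 (0.588 to 12.6 CPM, 4.32), Zeb1 (37.6 to 157 CPM, 2.06), Snai2 (1.96), Zeb2 (1.75) and Sox4 (196 to 522 CPM, 1.41). Twist2 (12.95 to 4.04 CPM, -1.67), Prrx1 (-1.01) and Snai3 (-1.03) were lower, and Hmga2 (0.84), Tcf4 (0.78), Ets1 (0.72) and Prrx2 (0.25) were not counted. Prrx1 stood at 0.37 in the Vp16-TRF1ΔN pair, on the opposite side of 0. Of 13 epithelial transcription and splicing factors 7 were lower and 1 higher (median -1.27). Rbm47, an RNA-binding splicing regulator, went from 137 to 15.2 CPM (-3.17), and Ehf, an Ets factor, from 171 to 21.5 CPM (-2.99). Hnf4a, a nuclear receptor of liver and gut epithelium (chr2:163506808-163572910), went from 446 to 92.0 CPM (log2 ratio -2.28, counting interval -2.33 to -2.23). Cdx2 (-3.02), an intestinal homeobox factor, Foxa2 (-2.51) and Klf5 (-2.21) were lower as well, and Grhl1 at -1.27. Toward the upper end were Gata3 (1.47, 35 to 89 counts), Foxa1 (-0.06), Esrp2 (-0.43) and Elf3 (-0.56). Larger factor families held members of both kinds. Of 6 Sox genes 3 were higher, with Sox9 (1.68), Sox4 and Sox11 (1.17) against Sox13 (-1.29). Of 11 Klf genes 4 were higher, led by Klf12 (1.59), Klf9 (1.31) and Klf7 (1.23), and Klf5 alone was lower, with Klf4 at -0.94. Of 25 Fox genes 5 were higher, led by Foxn1 (2.19), Foxj1 (1.54) and Foxc1 (1.38), and Foxa2 and Foxm1 (-1.21) were among the lower ones.

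Genes typical of liver and gut epithelium, which these mammary-derived cells expressed before treatment, were among the most strongly lower. Of 13 measured genes for complement and liver-type secreted proteins 11 were lower and 2 higher, with a median of -3.86. C3, the central complement protein, went from 202 to 12.1 CPM (log2 ratio -4.05, counting interval -4.19 to -3.93), and C1s1, a complement protease, from 47.4 to 3.16 CPM (-3.89). Itih2 (-4.96), Ambp (-4.57) and Hp (-4.47), plasma proteins made by the liver, had the lowest ratios after Alb. Serpina1b stood at -3.86, but its copies are near-identical and its value uncertain. Apob, the apolipoprotein of secreted lipid particles, went against this group at 371 CPM at 0 h and 1487 CPM at 24 h (2.004), as did Cfi, from 2 to 226 counts. Some gut epithelial genes chosen after their values were seen gave like values: Vil1, the villin of the brush border, stood at 61.1 CPM at 0 h and 2.64 CPM at 24 h (-4.51), and Cdh17, liver-intestine cadherin, at 219 CPM at 0 h and 15.8 CPM at 24 h (-3.79). Other gut genes were barely expressed at either time, such as Gpa33 (16 and 2 counts), Fabp1 (3 and 0 counts) and Tff3 (2 and 0 counts).

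Measured enzymes that conjugate and clear foreign or reactive compounds were mostly lower. Of the 24 UDP-glucuronosyltransferases and sulfotransferases in the table only 12 were measured, and these 12 were lower, against 10.8% of all genes, with a median of -2.27. Those that reached the minimum of 1 CPM through their 0 h library alone had to be lower. Ugt2b34 went from 299 to 12.04 CPM (log2 ratio -4.63, counting interval -4.76 to -4.51) and Sult1c2 from 196 to 6.03 CPM (log2 ratio -5.01, counting interval -5.21 to -4.84). Ugt2b36 (413 to 1 counts), Ugt2b35 (172 to 1 counts) and Sult1d1 (229 to 2 counts) were nearly lost. The other 7 were Sult2b1 (-2.34), Ugt1a8 (-2.20), Ugt1a7c (-2.03), Ugt1a9 (-1.84), Ugt1a6b (-1.253), Sult1b1 (-1.23) and Ugt1a6a (-1.15); the Ugt1a genes share exons, so their split is uncertain. Of 14 glutathione S-transferases 10 were lower and 1 higher (median -1.60). Gsta4, which detoxifies lipid aldehydes, went from 551 to 20.8 CPM (log2 ratio -4.73, counting interval -4.83 to -4.63) and Gstm1 from 50.7 to 6.72 CPM (-2.91), and the exception, Gsto2, from 43 to 95 counts. Of 15 cytochrome P450 genes 6 were lower, led by Cyp2c65 (220 to 1 counts), Cyp4f14 (162 to 2 counts) and Cyp2s1 (-4.96), and 2 higher, Cyp21a1 (2.64) and Cyp1b1 (1.19).

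NRF2, encoded by Nfe2l2, is the factor that maintains many antioxidant genes, and its own RNA was lower at 337 CPM at 0 h and 116 CPM at 24 h (-1.54). Of 29 NRF2 and antioxidant genes, some of which are also in the family of glutathione S-transferases, 13 were lower and 1 higher (median -0.91). Gclc, the catalytic subunit of glutathione synthesis, went from 619 to 83.3 CPM (-2.89), while its partner Gclm stayed level at 0.22. Aldh1a1 (291 to 15.6 CPM, -4.22), the cystine transporter gene Slc7a11 (658 to 44 counts) and Gsta3 (148 to 8 counts) were among the 5 lowest with Aldh3a1 and Gsta4. Other classical NRF2 targets differed: Txnrd1 (-0.07) and Srxn1 (0.25) stayed level, whereas Gstp1 stood at -1.59. Nqo1, with 11 counts at 0 h and 1 at 24 h, was below the minimum of 1 CPM. Hmox1 (0.62) and Gpx1 (0.37) were at the upper end. Between these, 24 of the 29 genes were below 0, with Gsr (-0.92), Sod2 (-0.91), Prdx1 (-0.75) and Gpx4 (-0.67) among those not counted.

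**Figure D3:**
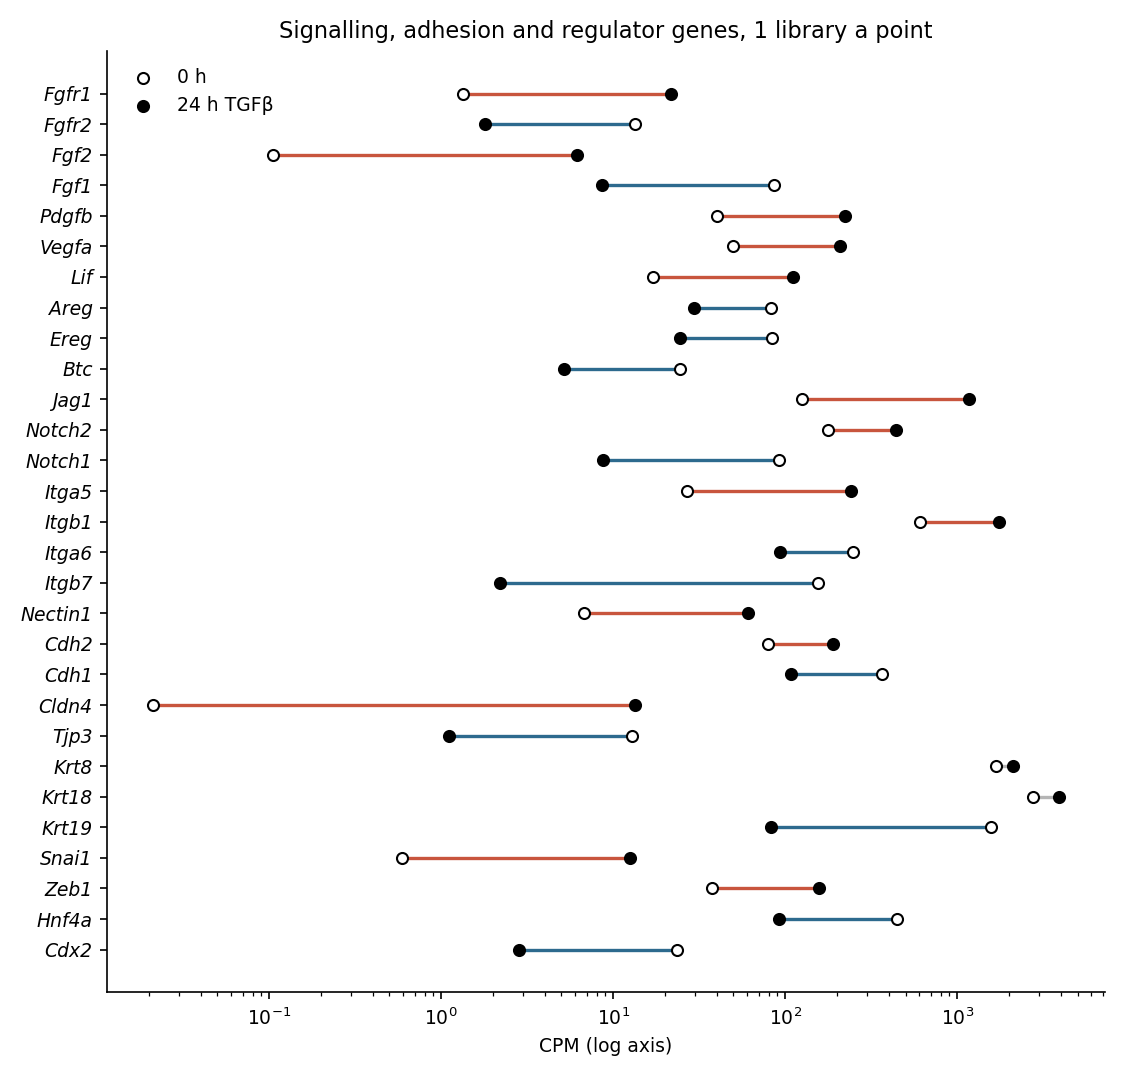
Each row is 1 gene of the TRF1ΔN line with its level at 0 h (open circle) and after 24 h of TGFβ (filled circle), in CPM on a log axis; red and blue lines join genes counted as higher and lower and grey lines those not counted. Relatives move in opposite directions, such as Fgfr1 and Fgfr2, Fgf2 and Fgf1, Notch2 and Notch1, and Itga5 and Itgb7, while Krt8 and Krt18 hardly move.

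Of 22 measured ligand and cytokine genes 11 were higher and 6 lower. The ligands of the EGF receptor family were 5 of the 6 lower ones: Btc (24.4 to 5.16 CPM, -2.23), Ereg (83.6 to 24.6 CPM, -1.76), Areg (82.4 to 29.3 CPM, -1.49), Nrg1 (-1.29) and Tgfa (-1.14). Hbegf, a further EGF family ligand, was level at 0.42. Among the higher ones were ligands that act on mesenchymal and vascular cells. Pdgfa went from 21.3 to 174 CPM (3.02), Pdgfb from 40.0 to 224 CPM (2.48) and Vegfa from 49.96 to 209 CPM (2.06). Vegfc (1.90) was higher as well, whereas Vegfb (-0.88) was not counted. Il11 and Lif (17.0 to 111 CPM, 2.70), which both signal through gp130, were higher too. The FGF system changed on both sides: Fgf2 (5 to 260 counts), Fgf18 (16 to 75 counts) and the mesenchymal receptor gene Fgfr1 (1.34 to 21.5 CPM, 3.96) were higher, and Fgf1 (86.0 to 8.62 CPM, -3.31) and Fgfr2 (13.5 to 1.81 CPM, -2.87) were lower. Per kilobase of exon, Fgfr2 was above Fgfr1 at 0 h (1.303 against 0.136 CPM per kilobase) and below it at 24 h (0.175 against 2.18).

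Of 19 receptor tyrosine kinases 6 were higher and 5 lower. The higher ones were Pdgfrb, from 0 to 217 counts (at least 81.9-fold higher), Ret (6 to 398 counts), Ephb2 (9 to 355 counts), Fgfr1, Pdgfra (26 to 114 counts) and Mst1r (35 to 150 counts). The lower ones were Fgfr2, Erbb3 (27.8 to 5.99 CPM, -2.21), Flt1 (-1.57), Epha2 (-1.32) and Met (324 to 139 CPM, -1.22). Egfr (0.95) and Erbb2 (-0.52) were not counted. Among ERK phosphatases and feedback genes 7 of 16 were higher and 2 lower. Dusp2 (3 to 108 counts), Dusp7 (1.66), Dusp5 (1.59), Dusp10 (1.43) and Spred2 (1.33) were highest and Spry1 (15.7 to 2.61 CPM, -2.57) and Dusp6 (68.2 to 22.2 CPM, -1.62), both targets of ERK signalling in many tissues, were lowest. Etv4 (-0.78), Errfi1 (-0.51) and Spry2 (-0.25) were below 0 without being counted.

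In the Notch pathway, where ligand and receptor sit on neighbouring cells, 4 of 11 genes were higher and 2 lower. Jag1, a ligand gene, went from 126 to 1165 CPM (log2 ratio 3.21, counting interval 3.17 to 3.25). Notch1 went from 92.5 to 8.69 CPM (log2 ratio -3.40, counting interval -3.57 to -3.26), whereas Notch2 (178 to 441 CPM, 1.31) and Notch4 (55 to 515 counts, 3.36) were higher. Dll1 (1.78) was higher and Jag2 (-1.14) lower, and the target genes Hes1 (0.15), Nrarp (0.57) and Hey1 (-0.65) were not counted, nor were Lfng (0.94) and Rbpj (-0.45). Of 18 Wnt pathway genes 6 were higher and 3 lower. Wnt9a, Fzd2 (2.29), Tcf7 (1.35), Wnt7a (1.26) and Fzd6 (1.16) were highest and Wnt4 (18.5 to 3.09 CPM, -2.57), Rnf43 (-1.67), Lrp5 (-1.10), Wnt10a (-0.99) and Lrp6 (-0.19) lowest, and the common feedback target Axin2 stood at 0.60.

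Of 15 measured ephrins, which are membrane-bound ligands, and their Eph receptors 7 were higher and 4 lower, with a median of 0.57 that became -0.67 with a minimum of 5 CPM. The ephrins Efna3 (3.12), Efna2 (1.61), Efna4 (1.47), Efnb1 (1.44) and Efna1 (1.27) were higher, and Efnb2 (-0.66) and Efna5 (-0.91) were not counted. The receptors Epha7 (-1.85), Epha4 (-1.49), Epha2 and Ephb3 (-1.21) were lower and Ephb2 and Ephb1 (1.78) higher. Of 21 semaphorins and plexins 7 were higher and 7 lower. The secreted guidance genes Sema3c, from 785 to 124.9 CPM (-2.65), and Sema3e (-2.84) had the lowest ratios, with Sema6b (-2.60), and Sema4f (15 to 710 counts), Plxna4 and Sema6c (2.09) the highest.

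Protocadherins are adhesion molecules of the cadherin superfamily that are best known from neurons. The table held 54 of them, and 12 reached a mean of 1 CPM over the 2 libraries, 9 higher and none lower (median 2.18). A low gene that reached this mean through its 24 h library alone had to be higher, so these numbers do not describe the family. Pcdhb22 went from 0.924 to 8.88 CPM (log2 ratio 3.21, counting interval 2.81 to 3.75), Pcdhb17 from 1.28 to 7.41 CPM (log2 ratio 2.49, counting interval 2.13 to 2.95) and Pcdhga10 from 0.777 to 4.23 CPM (log2 ratio 2.38, counting interval 1.93 to 2.997). Pcdhb20 (3.23) and Pcdhb19 (2.53) had ratios of that size. Pcdh1 (0.91), Pcdhgc3 (0.89) and Pcdh7 (0.83) were below 2-fold. With a minimum of 5 CPM in place of 1 CPM the median was 0.90. The clustered genes resemble each other closely and can share reads, so single values are uncertain.

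Cell cycle genes were lower, and the parts of the cycle differed in degree. DNA replication genes copy the genome in S phase, and 34 of 37 were lower and none higher, with a median of -1.53. Cdc6, which loads the replicative helicase, went from 59.4 to 8.69 CPM (log2 ratio -2.77, counting interval -2.93 to -2.61), and Mcm5, a helicase subunit, from 285 to 64.2 CPM (log2 ratio -2.15, counting interval -2.21 to -2.09). Tk1 (-2.39) and Chaf1b (-2.26) were also among the 5 lowest. The 5 closest to 0 were Gins4 (-0.78), Gins3 (-0.84), Rrm1 (-0.86), Rfc2 (-1.01) and Rpa1 (-1.02), so every member was below 0. Mitosis genes act later, and 23 of 36 were lower and none higher, with a median of -1.06. They spanned from Mybl2 (-2.35), Ect2 (-1.90), Aurkb (-1.55), Kif11 (-1.49) and Birc5 (-1.46) to Kif2c (-0.66), Cenpf (-0.60), Prc1 (-0.52), Cenpe (-0.45) and Cenpa (-0.42). Cenpa, the centromeric histone variant, thus went from 64.2 to 47.9 CPM, a smaller step than that of any replication gene.

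The gap between the medians of these lists was smaller in the Vp16-TRF1ΔN pair, where they were -1.69 for replication and -1.56 for mitosis. Of the 36 mitosis genes 35 had a lower ratio there than in the TRF1ΔN line, and 35 were at least 2-fold lower, against 23 here; of the 37 replication genes 26 had a lower ratio there. Cenpa stood at -1.56 there against -0.42 here, and Plk1 at -1.75 against -0.97. With 1 library in each group this difference between lines has no test.

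**Figure D4:**
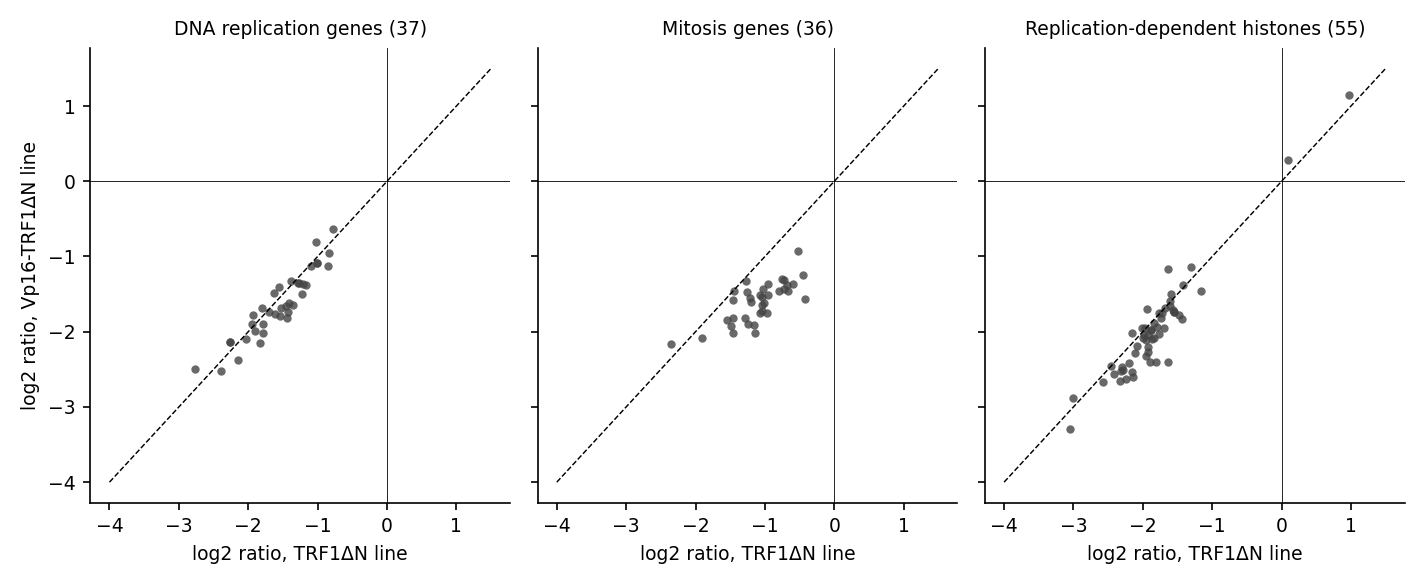
Each point is 1 gene, placed by its log2 ratio (24 h TGFβ over 0 h) in the TRF1ΔN line and in the Vp16-TRF1ΔN line, for 37 replication genes, 36 mitosis genes and 55 histone genes; the dashed line marks equal ratios. Mitosis genes lie below the line, 35 of 36 with the lower ratio in the Vp16-TRF1ΔN line, while replication genes lie closer to it.

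The promoters of these lists were read for 3 motifs of cell cycle genes. E2F factors act on S phase genes, and their sites TTGGCGC or TTCCCGC were in 53.3% of 30 replication windows, in 13.8% of 29 mitosis windows and in 13.04% of all windows. The cell cycle homology region TTTGAA, through which the DREAM and MuvB complexes act on late cell cycle genes, was in 69.0% of mitosis windows, 13.3% of replication windows and 11.6% of all windows. The letters CCAAT were in 72.4% and 63.3% of the respective lists and 39.2% of all windows. Among all genes counted as lower, E2F sites were in 17.8% of windows and TTTGAA in 17.6%. Among those counted as higher the shares were 9.18% and 8.63%. Both lists were chosen for their part in the cell cycle, so their shares describe the lists and not the response. Both strands were searched. An E2F site read as GCGCCAA ends in the first letters of CCAAT, so matches of these motifs can overlap. The windows of Mcm5 and Mcm3 (-2.04) show E2F sites in capitals (GCGCCAA and GCGGGAA are the opposite strand), and those of Cdk1 (-1.46) and Plk1 show TTTGAA:
Mcm5, chr8:75109259-75109558, plus strand: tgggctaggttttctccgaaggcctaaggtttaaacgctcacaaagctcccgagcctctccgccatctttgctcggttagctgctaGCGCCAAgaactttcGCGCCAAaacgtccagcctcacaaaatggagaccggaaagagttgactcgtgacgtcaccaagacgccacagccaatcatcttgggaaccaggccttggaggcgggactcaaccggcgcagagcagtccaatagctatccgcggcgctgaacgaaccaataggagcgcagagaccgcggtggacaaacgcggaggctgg
Mcm3, chr1:20820263-20820562, minus strand: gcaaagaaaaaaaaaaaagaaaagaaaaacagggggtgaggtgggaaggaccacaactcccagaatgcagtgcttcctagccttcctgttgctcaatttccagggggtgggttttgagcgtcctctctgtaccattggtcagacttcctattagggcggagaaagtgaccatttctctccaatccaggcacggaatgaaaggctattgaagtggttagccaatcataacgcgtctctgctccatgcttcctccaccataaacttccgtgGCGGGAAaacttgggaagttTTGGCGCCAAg
Cdk1, chr10:69352863-69353162, minus strand: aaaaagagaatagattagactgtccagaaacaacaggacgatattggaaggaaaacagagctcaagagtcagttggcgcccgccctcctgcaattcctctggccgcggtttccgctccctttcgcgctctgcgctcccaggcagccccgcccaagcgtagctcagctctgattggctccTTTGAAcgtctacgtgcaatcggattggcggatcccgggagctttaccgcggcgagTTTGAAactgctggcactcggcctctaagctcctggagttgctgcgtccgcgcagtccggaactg
Plk1, chr7:122159185-122159484, plus strand: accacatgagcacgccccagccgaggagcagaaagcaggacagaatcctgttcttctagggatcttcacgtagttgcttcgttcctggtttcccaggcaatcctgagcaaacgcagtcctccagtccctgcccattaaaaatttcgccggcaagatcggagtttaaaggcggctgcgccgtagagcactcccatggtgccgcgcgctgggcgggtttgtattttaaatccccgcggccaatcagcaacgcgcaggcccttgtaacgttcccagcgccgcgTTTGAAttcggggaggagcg

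Histone genes that are transcribed in S phase were lower almost to the last member. Of 55 measured members 53 were lower and none higher, with a median of -1.89, and their share of all counts went from 0.611% to 0.160%. Hist1h1a, a linker histone gene, went from 313 to 37.7 CPM (log2 ratio -3.05, counting interval -3.13 to -2.98) and Hist1h2bl from 76.2 to 12.8 CPM (-2.57). The 2 exceptions were Hist3h2a (146 to 255 counts, 0.97) and Hist2h3c2 (55 to 52 counts, 0.09). All 45 measured histone genes of chromosome 13 were lower (median -1.90), as were 6 of 7 on chromosome 3. Copies within these clusters are near-identical, so values of single genes are uncertain while the sum is less so. Their RNAs mostly lack poly(A) tails and these libraries were made from total RNA after depletion of ribosomal RNA.

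Regulators of the cycle were mixed. Of 27 CDK inhibitors, cyclins and Myc family genes 2 were higher and 10 lower. Cdkn2b, the p15 inhibitor and a known TGFβ target, went from 40.3 to 129 CPM (log2 ratio 1.68, counting interval 1.61 to 1.76), and Mxd4, an antagonist of Myc, from 49.1 to 145 CPM (1.56). Max (0.25), Rbl2 (0.20) and Cdkn2a (0.20) came next. Lowest were E2f2 (885 to 35 counts, -4.41), E2f8 (-2.46), Ccne2 (-2.22), Cdkn2c (-1.79) and Ccne1 (-1.57). Myc itself was at -0.16, and Cdkn1a, the p21 inhibitor, at -0.61. Of 24 p53 targets 3 were higher and 1 lower. Gadd45a (7.43 to 155 CPM, 4.37) and Gadd45b (2.67), which SMADs also act on, and Pmaip1 (1.32) were higher; Btg2 (0.48) and Phlda3 (0.28) followed, and Ephx1 (-2.36), Perp, Cdkn1a, Plk3 (-0.58) and Sesn2 (-0.56) were lowest. Maintenance of DNA methylation, which runs with replication, had Uhrf1 (170.5 to 31.0 CPM, -2.46) and Dnmt1 (329 to 135 CPM, -1.28) lower. Dnmt3a, a de novo methyltransferase, stood at 1.09, just under 2-fold with scaling by total counts. These 3 belong to a list of 31 measured chromatin genes, of which 4 were higher and 3 lower. The others counted were the histone methyltransferase gene Setd7 (1.87), the demethylase genes Kdm6b (1.75) and Kdm5b (1.31), and, lower, Cbx7 (-1.44), a Polycomb protein that reads histone methylation. Of 22 telomere genes none was counted (median -0.19), and the mouse Terf1 gene, which encodes the cells' own TRF1, stood at -0.39. They ran from Rtel1 (-0.82), Dkc1 (-0.70), Stn1 (-0.64), Tinf2 (-0.61) and Nhp2 (-0.43) to Tep1 (0.82), Tnks (0.80), Atrx (0.31), Daxx (0.30) and Pot1b (0.26).

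Most genes of central carbon metabolism were below 0, and few of them passed 2-fold. Of 25 measured genes of glycolysis and the pentose phosphate path 7 were lower and 3 higher, and 20 were below 0 (median -0.65). Ldha, lactate dehydrogenase, went from 1215 to 375 CPM (log2 ratio -1.70, counting interval -1.72 to -1.67) and Slc16a1, a lactate transporter, from 265 to 83.5 CPM (-1.66). G6pdx (-1.60), Pdk1 (-1.56) and Tkt (-1.02) were next. The higher ones were Hk2 (46.6 to 164 CPM, 1.82), Pfkp (1.255) and the regulatory kinase gene Pfkfb4 (4.16 to 61.5 CPM, 3.87), which act at the entry of the path. Other genes of those steps lay on both sides of 0 and were not counted: Pfkfb3 (0.95) and Hk1 (0.28) above, and the glucose transporter gene Slc2a1 (-0.28), Gpi1 (-0.43), Pfkl (-0.79) and Pfkm (-0.93) below. Gapdh (655 to 312 counts), Pgk1, Pgam1 and Eno1 have many processed pseudogenes and low counts for their kind, so their values are uncertain. All 23 TCA cycle genes were below 0 (median -0.31), though Idh1 alone was counted as lower (439.8 to 109.7 CPM, -2.003); Sdhd (-0.91), Suclg2 (-0.79), Idh2 (-0.78) and Fh1 (-0.71) were next and Idh3g (-0.10), Sucla2 (-0.10), Pdha1 (-0.11), Cs (-0.18) and Dlat (-0.20) closest to 0. The Idh1 enzyme acts mostly in the cytosol.

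The respiratory chain differed by genome of origin. Of 36 nuclear complex I genes 33 were below 0 with none counted (median -0.32), and complexes III to V gave a median of -0.28. Mitochondrial ribosomal proteins had a median of -0.26 over 77 genes. The 9 measured messenger and ribosomal RNAs encoded in mitochondrial DNA were all above 0 (median 0.51), from mt-Nd2 (0.33) to mt-Nd5 (0.74), and their share of all counts went from 10.2% to 13.3%. None reached 2-fold. Scaling by total counts shifts the median of all genes by -0.094 on the log2 scale, which leaves the signs of these medians as they are.

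Of 27 ATF4 target genes for amino acids 8 were lower and 4 higher (median -0.31). Psat1, of serine synthesis, went from 418 to 75.1 CPM (log2 ratio -2.47, counting interval -2.53 to -2.42) and Phgdh, the first enzyme of that path, from 73.6 to 23.6 CPM (-1.64). The transporter genes Slc7a11, Slc1a5 (-1.93) and Slc7a1 (-1.32) and the enzyme gene Cth (-2.68) were also among the lowest. Psph (-0.68) and Shmt2 (-0.63) of the serine path, Asns (-0.30) and the transporter genes Slc38a2 (0.08) and Slc3a2 (0.14) were not counted. The higher ones, Ddit4 (1.96), Nupr1 (1.86), Trib3 (1.26) and Chac1 (1.09), are stress regulators rather than biosynthetic enzymes, and Pycr1 (0.88) came next. Atf4 itself stood at -0.25. Cholesterol genes had 0 higher and 2 lower of 24. Of the synthesis enzymes, Lss (-0.81), Sc5d (-0.66) and Ebp (-0.61) were below 0 without being counted, and Nsdhl (0.29), Tm7sf2 (0.16) and Fdft1 (0.11) were among the highest of the list, with the regulator Insig1 at 0.31. Of 26 fatty acid genes 8 were lower, with Ppargc1a (-2.27), Scd1 (-1.73), Me1 (-1.58), Elovl6 (-1.53) and Srebf1 (-1.29) lowest, and 1 higher, the lipid droplet gene Plin2 (205 to 929 CPM, 2.18).

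The secretory path, by contrast, was slightly above 0. Of 31 genes 25 were above 0, 4 were higher and none lower (median 0.23). Creb3l1, a membrane-bound factor that acts on collagen secretion, went from 1.05 to 25.5 CPM (log2 ratio 4.54, counting interval 4.19 to 5.04), and its relative Creb3l2 from 23.4 to 82.0 CPM (1.81). Kdelr3 (1.59), Sec24d (1.29) and Sec31a (0.90) followed, and Golm1 (-0.88), Sar1b (-0.30), Sec24a (-0.14), Ssr1 (-0.10) and Ssr2 (-0.09) were lowest. Chaperones of the endoplasmic reticulum stayed level (median 0.09; Hspa5 at 0.19), apart from Herpud1 (-1.97). Of 30 lysosome and autophagy genes 3 were higher, Ctsl (632 to 1842 CPM, 1.54), Map1lc3a (1.84) and Wipi1 (1.36), and none lower. The share higher, 10%, was near the 8.64% of all genes, of which 10.8% were lower.

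**Figure D5:**
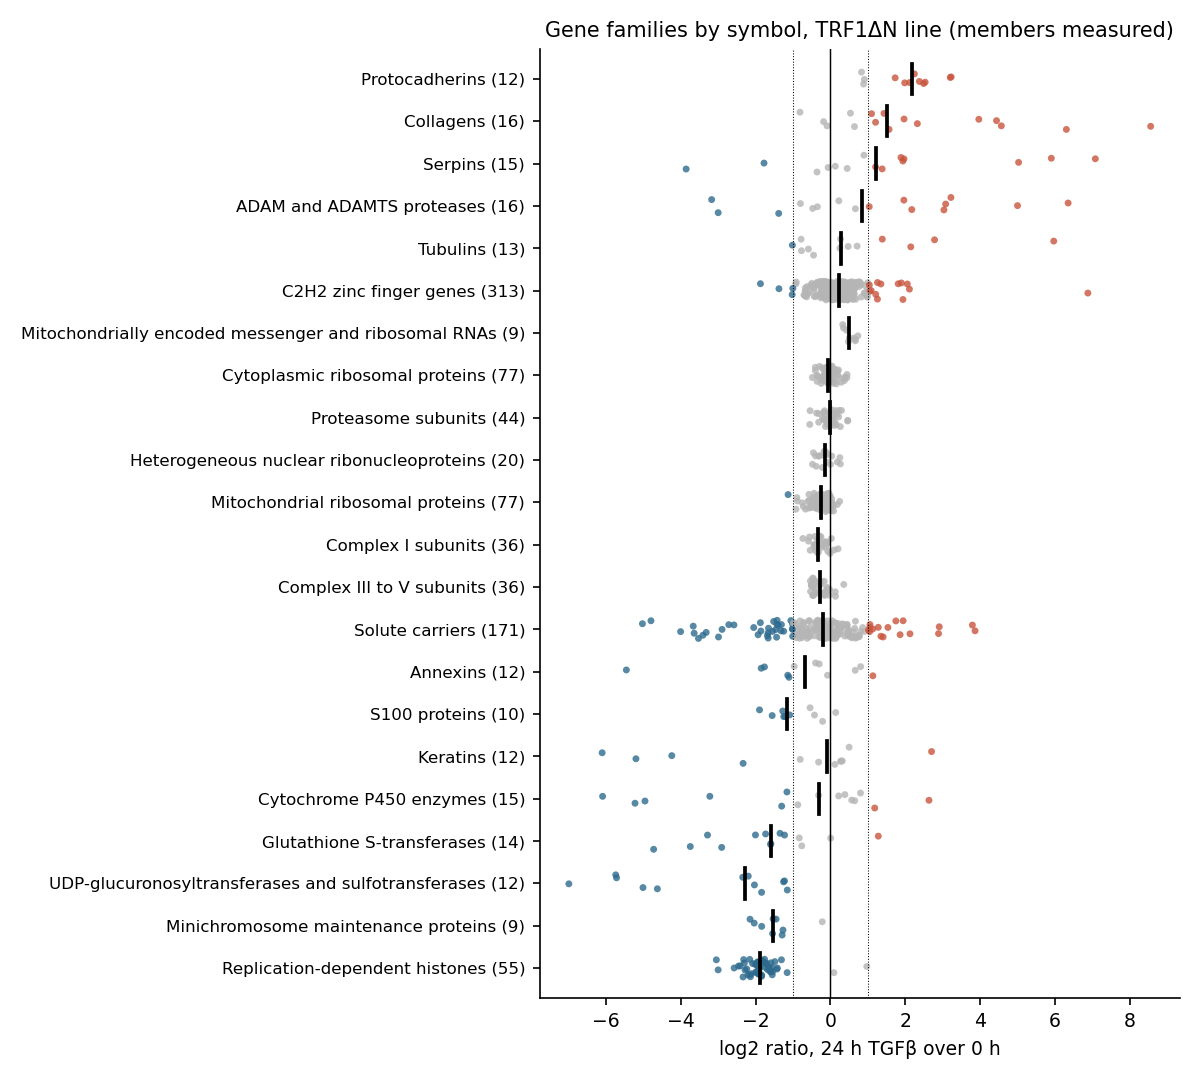
Each point is the log2 ratio of 1 measured member of a gene family in the TRF1ΔN line, and the black bar is the family median; the number measured is in brackets, red and blue mark genes counted as higher and lower. The measured protocadherins and most collagens lie above 0 and histones and conjugating enzymes below, while 77 ribosomal and 44 proteasome genes form narrow bands at 0 with none counted.

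Large constitutive families stayed near no change relative to the other genes. The scaling takes most genes as unchanged, so a shift of such families per cell could not be seen. None of 77 cytoplasmic ribosomal protein genes (median -0.05) and none of 44 proteasome genes (median -0.01) was counted, nor any of 54 translation initiation factors or 47 DEAD-box helicases. Many ribosomal protein genes have processed copies, so single values are uncertain. C2H2 zinc finger genes, the largest class of transcription factors, had 13 of 313 measured members higher and 4 lower; 238 were above 0, with a median of 0.22. Zfp469, linked to a corneal collagen disorder, went from 0 to 220 counts (at least 83.0-fold higher), and Zfp9 (2.11) and Zfp651 (2.06) followed. Zfp367 (-1.87), Zfp395 (-1.38) and Zfp365 (-1.02) were lowest. Of 171 solute carriers 35 were lower (20.5%, against 10.8% of all genes) and 17 higher (9.94%, near the 8.64% of all genes). They ran from Slc10a2 (104 to 1 counts), a bile acid transporter, Slc10a5 (120 to 2 counts) and Slc17a1 (-4.01) to Slc39a2 (3.87), Slco5a1 (3.80) and Slc46a1 (2.91). Slc10a2 and Slc10a5 reached the minimum of 1 CPM through their 0 h library alone.

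Calcium-binding families were lower in part. Of 10 S100 genes 6 were lower and none higher (median -1.15, or -0.54 with a minimum of 5 CPM); S100a4, often used as a marker of fibroblasts and of EMT, went from 442 to 150 CPM (-1.56), and S100a14 (-1.90) and S100a3 (-1.27) were also at the low end, with S100a11 (0.14), S100a16 (-0.21) and S100a1 (-0.43) highest. Of 12 annexins 5 were lower, with Anxa10 (30.1 to 0.641 CPM, -5.46), Anxa13 (-1.85) and Anxa4 (-1.76) lowest, and Anxa6 (1.14) alone was higher; Anxa5 (0.81) and Anxa8 (0.66) came next. Anxa13 is known from gut epithelium and Anxa10 from gastric epithelium.

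Of 24 measured chemokine and NF-κB genes 9 were lower and 2 higher. Cxcl5, a neutrophil chemokine, went from 1418 to 256 CPM (log2 ratio -2.47, counting interval -2.50 to -2.44), and the chemokine genes Ccl20 (-2.77), Cx3cl1 (-1.79) and Cxcl1 (-1.35) were lower too, while Ccl2 (-0.48) and Cxcl16 (0.42) were not counted. Lcn2 (-2.99), Saa3 (-3.40) and Tnfaip2 (-2.86) were lower, as were the adhesion molecules Icam1 (-2.30) and Vcam1 (-1.995). The subunit genes Nfkb1 (0.40), Rela (0.45) and Relb (0.14) stayed within 2-fold, and so did the inhibitor Nfkbia (-0.24). Ptgs2, cyclooxygenase 2, went the opposite way from 47.7 to 316 CPM (log2 ratio 2.73, counting interval 2.66 to 2.79); Tnfaip3 (1.01) was just past 2-fold and Ccl7 (0.62) below it. Interferon-stimulated genes were flat as a list (median 0.04, or -0.05 with scaling by total counts; 1 of 18 higher and 3 lower). Mx1, an antiviral GTPase, went from 1382 to 9 counts (-6.81), with Bst2 (-1.15) and Ifit2 (-1.10) lower, Trim25 (-0.77) and Samhd1 (-0.62) below 0, and Oasl2 (2.53), Parp14 (0.78), Parp9 (0.68), Irf1 (0.67) and Ifi27 (0.48) highest. In antigen presentation B2m, the shared light chain of class I molecules, was higher at 157 CPM at 0 h and 355 CPM at 24 h (1.18), Tap1 (-1.07) and Tap2 (-1.04) were lower, and the heavy chain genes H2-K1 (-0.17) and H2-D1 (-0.58), which have close relatives, were not counted.

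The circadian clock list was level apart from its edges, with 1 of 18 genes higher and 1 lower (median -0.07). Bhlhe40, a repressor of clock genes that TGFβ is known to act on, went from 35.96 to 302 CPM (log2 ratio 3.07, counting interval 2.999 to 3.15). Nr1d1 (0.98), Nfil3 (0.76), Arntl2 (0.66) and Nr1d2 (0.58) came next to Bhlhe40, and Per2 (-0.77), Dbp (-0.64), Cry1 (-0.63) and Ciart (-0.59) were toward the low end, none of them past 2-fold. By gene class, 931 of 11053 protein-coding genes were higher and 1221 lower. Of 126 long intergenic RNAs 21 were higher (16.7%) and 15 lower (11.9%), and of 88 antisense RNAs 12 were higher (13.6%) and 5 lower (5.68%). Over all measured genes the shares were 8.64% and 10.8%, and over those at 1 to 5 CPM 17.8% and 18.9%. The classes were not matched for level, so these counts are not read as a trait of noncoding genes. Reads of an antisense gene and its partner cannot be told apart without strand, and the strand setting of the counting is not given in the sources used here.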

How the data were processed

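Counts per gene were deposited by the authors as raw values, with 1 library in each of the 4 groups; FastQC, STAR, HTSeq and DESeq2 and the mm10 build are named, per the submitters' processing notes. No source used here gives their versions, the annotation release or the strand setting. The deposited log2 values are the counts divided by a DESeq2 size factor, plus 1, which was checked on the files. They served as an alternative only.

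Libraries were scaled by edgeR 4.0.16 (R 4.3.3) with TMM factors over all 4 libraries, after leaving out 4 construct rows. Log2 ratios used a prior count of 2, and each fold has an exact Clopper-Pearson 95% interval given the sum of both counts, which covers counting error only; PCR copies are not independent molecules. Scripts were tested on simulated counts. With 1 library a group no test and no p-value was possible. A gene entered when its 2 libraries averaged 1 CPM or more; ratios against 0 counts use a floor of 3 counts.

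Named genes were the 10 largest ratios each way at 5 CPM or more and 10 counts in both libraries, the 10 largest each way at 100 CPM or more, the 10 largest gains and losses in CPM, the 8 strongest genes each way with at most 3 counts in one library, list members (all of 12 or fewer, otherwise the 5 highest and 5 lowest) and the 3 highest and lowest of a family. Predicted, RIKEN, pseudogene and small RNA genes and mitochondrial rows stayed out of the first 4 sets. Some genes that these rules name are not reported here. Other members named were chosen after their values were seen. The members, 52 lists and 65 families were chosen with earlier results of these data known. Symbols came from a table of gene IDs, which matched 21889 of 21971 genes, and gene classes and coordinates from GENCODE on GRCm38, the assembly behind mm10. Promoters are from RefSeq for GRCm38.p6. Alternatives were other scalings, filters, prior counts and the deposited log2 values.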

Additional observations from a re-analysis of the deposited data

Results flagged for a closer look

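Rny3, the gene of a small noncoding Y RNA, was higher after TGFβ in the TRF1ΔN line, with 655 counts at 0 h and 1281 at 24 h (log2 ratio 1.14), and lower in the Vp16-TRF1ΔN line, with 1127 and 636 counts (log2 ratio -0.49). The opposite directions drew attention to it, and the difference was not tested, since each group had 1 library.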

How the results depend on the processing

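Without the filter on low levels 1880 genes were higher and 1946 lower, since more genes enter and low counts give large ratios. Under the other 7 settings (DESeq2 size factors, total counts, TMM over the pair, mitochondrial genes left out, a minimum of 5 CPM, a prior count of 0.5 and the deposited log2 values) the counts lay between 709 and 1026 genes higher and 941 and 1433 lower. The share of counted genes that were higher was 44.5%, 38.9% with total counts and 49.1% with no filter. Of the ratios of named genes under all these settings, the one without a filter included, 7267 kept their side of 2-fold. A further 21 moved past it, 7 moved back under it and 0 changed sign among those counted. Changing the filter leaves a ratio as it is. The 922 ratios without a filter and the 841 with a minimum of 5 CPM are among the 7267 and could not have moved. The 6 genes that moved back with total counts were Chac1, Dnmt3a, Flna, Tgfb2, Tgif1 and Tnfaip3. Medians of 12 lists and families changed sign with total counts, none over 0.0921 in size, and of 9 with a minimum of 5 CPM, where that of the Eph and ephrin family went from 0.57 to -0.67. No paired analysis was possible because each group had 1 library, and no library could be left out. Genes at 1 to 5 CPM rest on few counts, and differences between cultures cannot be seen at all.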

Other observations

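Constant-region genes of immune receptors, which belong to no list above, were present after TGFβ at low levels. Igha, the constant region of immunoglobulin A (chr12:113254830-113260236), had 0 counts at 0 h and 527 at 24 h, at least 199-fold higher against the floor of 3 counts, and 0 and 113 counts in the Vp16-TRF1ΔN line. Ighe, the neighbouring constant region of immunoglobulin E, had 0 and 22 counts, and 0 and 2 in the other line. Among T cell receptor genes Trbc1 had 2 and 88 counts, Trac 38 and 139 and Trdc 25 and 146, whereas Trbc2 had 1 and 0. Ptprc and Rag1, which mark lymphoid cells or recombination, had 7 and 1 and 0 and 2 counts.

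Genes of myoepithelial or fibroblast type outside the measured range were also read. Acta2, smooth muscle actin and a common marker of full EMT, had 1 count at 0 h and 75 at 24 h, 84.9-fold higher with a counting interval of 14.8 to 3397. Other contractile genes in this range were split. Tagln had 1 and 55 counts, whereas Cnn1 (1 and 1 counts), Myh11 (0 and 3 counts), Actg2 (0 and 5 counts) and Myl9 (0 and 5 counts) were near 0. Tpm2 had 19 and 3 counts. Krt5 had 21 and 1 counts, and Krt17 had 0 and 56. Epcam, a common epithelial surface marker, had 18 and 11 counts, although Cdh1, Krt8 and Krt18 were abundant; whether the handling of shared or overlapping reads lowered this count could not be settled from the files, so it is not read as absence.

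Of the 1269 genes counted as lower here 6 were not below 1 in the Vp16-TRF1ΔN line: Crp (187 to 35 counts here, 142 to 138 there), Otud1 (247 to 83, 225 to 201), C3ar1 (185 to 70, 167 to 133), Adgra2 (78 to 31, 36 to 33), Prrx1 (130 to 56, 88 to 91) and Nrip2 (118 to 51, 75 to 63). These were genes of low count, and the difference between lines was not tested.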
